A study of Mus musculus with 2 samples.

Results

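Immune checkpoint genes encode the surface proteins through which T cells are restrained or helped by the cells that meet them. The 10 genes described here were chosen by name as checkpoint receptors and ligands, out of 32228 genes in the count tables. There were 6 receptors (Ctla4, Pdcd1, Lag3, Tigit, Havcr2 and Icos) and 4 ligands (Cd274, Pdcd1lg2, Cd80 and Cd86). They were followed in 2 single-cell RNA-seq libraries of CD45+ 7-AAD- cells sorted from the colonic lamina propria (LP), the connective layer beneath the gut epithelium. One library came from WT mice and the other from Ring1AKO mice, which lack the polycomb gene Ring1a throughout the body. Both groups were C57BL/6 mice, 8 to 10 weeks of age by their labels, and all had colitis from dextran sulfate sodium (DSS) given in the drinking water. Each library pooled colons of several mice, so there was 1 library per genotype. No test between genotypes was therefore possible, genotype and library preparation cannot be told apart, and the 95% intervals given below cover counting error only. The question behind the comparison was how loss of Ring1a alters the mucosal immune cells during colitis.

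CTLA-4, the product of Ctla4, binds the costimulatory ligands CD80 and CD86 with higher affinity than CD28 does, and regulatory T cells (Treg) hold large amounts of it. PD-1, the product of Pdcd1, is bound by PD-L1 (Cd274) and PD-L2 (Pdcd1lg2), and PD-L1 is well known to be inducible by interferons, IRF1 being one of the factors involved. LAG-3 binds MHC class II, TIGIT binds the poliovirus receptor, and TIM-3 (Havcr2) is carried by exhausted T cells and also by dendritic cells and macrophages. ICOS is the costimulatory member of the receptor group and has its own ligand, Icosl.

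Cd274 and Pdcd1lg2 are neighbours on mouse chromosome 19, and they behaved differently in the data below. The 250 bases before the start site of each are shown for that reason, on the plus strand of build GRCm38.p6 as given by RefSeq. Cd274 spans chr19:29367188-29367437 and Pdcd1lg2 spans chr19:29410669-29410918. Capitals mark the only match in each to AANNGAAA, the core that interferon regulatory factors recognise, read here on the other strand. This core was added to the search after the sequences had been seen.
Cd274: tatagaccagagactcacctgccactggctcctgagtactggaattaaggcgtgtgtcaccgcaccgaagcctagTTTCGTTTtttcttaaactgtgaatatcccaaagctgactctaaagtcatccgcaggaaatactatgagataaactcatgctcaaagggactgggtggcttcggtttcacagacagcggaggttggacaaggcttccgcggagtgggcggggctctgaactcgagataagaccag
Pdcd1lg2: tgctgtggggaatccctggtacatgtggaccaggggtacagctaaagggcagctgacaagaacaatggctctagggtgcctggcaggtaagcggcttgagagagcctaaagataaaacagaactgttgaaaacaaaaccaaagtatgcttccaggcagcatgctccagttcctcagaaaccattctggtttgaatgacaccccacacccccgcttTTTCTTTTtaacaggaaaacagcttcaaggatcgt

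RefSeq promoters were found for 7 of the 10 genes, all but Lag3, Icos and Cd86. On either strand, AANNGAAA was present in those of Cd274, Pdcd1lg2 and Pdcd1, and 21.3% of all 32851 promoters of the same length held it. None of the 7 held a tandem of the interferon regulatory core (2.98% of promoters) or an NF-kB element (1.41%). The letters TTCNNNGAA of the GAS (gamma-activated site) element, held by 7.02% of promoters, were also searched and found in none of the 7. These are matches of letters within 250 bases and say nothing of binding. In the mouse annotation (GENCODE vM21, GRCm38), Cd274 and Pdcd1lg2 each overlap an antisense gene that is counted separately, AC119228.1 and A930007I19Rik.

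Cells were assigned to 11 gates from the UMIs (unique molecular identifiers, 1 per captured transcript) of lineage genes, and none of the 10 checkpoint genes was used in a gate. The gates were Foxp3 Treg, Th17 (Il17a or Il17f), other CD4 T, CD8 T, NK, ILC2 (group 2 innate lymphoid cells), monocyte, C1q macrophage, neutrophil, dendritic and B. After removal of poor barcodes there were 6005 cells of the WT library, with a median of 6354 UMIs, and 7918 of the Ring1AKO library, with a median of 5035 UMIs. Of these, 3980 and 5546 entered 1 gate. The smallest gate was Th17, with 92 WT and 47 Ring1AKO cells, and the largest was B, with 1174 and 3464. Marker genes that were not used by a gate were detected in all 11 gates and lay above their level in cell-free barcodes. In the other CD4 T gate, however, none of the 3 check markers was highest in its own gate, all 3 being among the top 3 gates. Of the dendritic and of the CD8 T check markers, 2 of 4 were highest in their gate, and in CD8 T cells 1 of the 4 was not among the top 3 gates. The libraries shared 11 cell barcodes, 2 of them gated, and leaving these out moved no ratio beyond its interval. Ring1 (the symbol for Ring1a) had 828 UMIs in WT cells and 816 in Ring1AKO cells (13.4 and 11.8 CPM, UMIs per 1000000 UMIs of the cells summed), with a log2 ratio of -0.18 (95% interval -0.32 to -0.04). A count of 3′ ends does not show whether the transcript is disrupted. Some check markers differed in level between the libraries. Ikzf2 in Treg stood at 1149 CPM in WT and 591 in Ring1AKO, and Il22 in Th17 at 2763 and 734. Prf1 in NK cells stood at 462 and 221 CPM, and Ccr7 in dendritic cells at 667 and 1201. Others differed less, such as Tnfrsf18 in Treg (591 and 641 CPM) and Areg in ILC2 (1541 and 1525). Their part in the ratios below was not tested.

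The RNA of the libraries differed in a way that touches every ratio below. Ribosomal protein genes took a median of 23.8% of a cell's UMIs in WT and 31% in Ring1AKO, mitochondrial genes 2.05% and 2.49%, and Malat1, a nuclear transcript, 19568 and 13557 CPM. Within every gate the log2 ratio (Ring1AKO over WT, with 1 UMI added) was lower for longer transcripts. In the Treg gate its median ran from 0.30 in the shortest quintile of genes to -0.49 in the longest, and in the C1q macrophage gate from -0.01 to -0.12. Cd274, Icos and Cd80 lay in the middle quintile of lengths in every gate, and the other members in the 2 shorter quintiles. The part of this trend in the results was not tested, and ratios set against genes of like length are given where they matter.

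**Figure D1:**
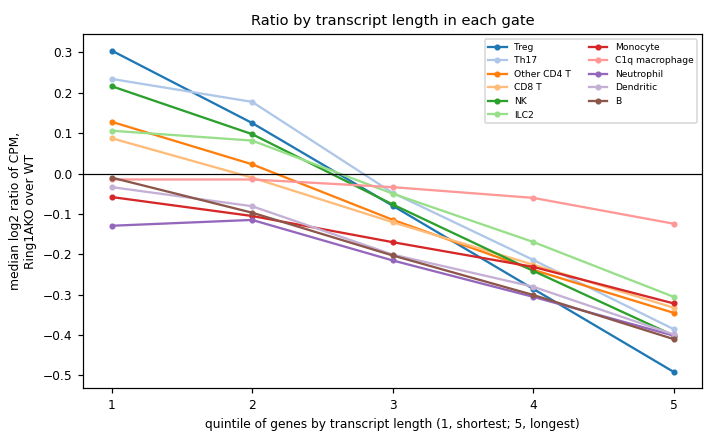
Median log2 ratio of CPM (Ring1AKO over WT, y axis) of genes that reached 30 UMIs in a gate, by quintile of transcript length (x axis, 1 shortest), with 1 line per gate. The Treg line runs from 0.30 to -0.49, the steepest of the 11, and the C1q macrophage line from -0.01 to -0.12.

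Among the receptors, Ctla4 was at its highest in Treg and differed little between genotypes there, whereas Icos was lower in Ring1AKO in all T cell gates and Pdcd1 was lower in CD8 T cells and higher in ILC2. Ctla4 reached 2874 CPM (95% interval 2787 to 2963) in WT Treg and 2736 CPM (2668 to 2806) in Ring1AKO Treg. The log2 ratio was -0.07 (-0.13 to -0.01). It was 0.00 once centred on the median of all genes and -0.20 against genes of like length. Both genotypes ordered the T cell gates alike, from Treg through Th17 and other CD4 T to CD8 T, with no overlap of neighbouring intervals. Th17 cells had 1602 CPM in WT and 1626 in Ring1AKO, and other CD4 T cells had 876 and 863, and both ratios had intervals that held 0. In CD8 T cells Ctla4 was 272 CPM in WT and 306 in Ring1AKO, a log2 ratio of 0.17 (0.04 to 0.29). The NK gate differed most, with 93.5 CPM against 182, a log2 ratio of 0.95 (0.51 to 1.42) from 69 and 108 UMIs. ILC2 held 145 and 146 CPM.

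With each cell thinned to 1000 UMIs, averaged over all possible draws, Ctla4 was found in 81.9% of WT Treg (exact binomial 95% interval 76.1 to 86.9%) and 83.3% of Ring1AKO Treg (77.8 to 87.9%). The unthinned shares were 98.1% and 97.4%. In B cells, which should lack the gene, the thinned share was 1.87% in WT and 1.99% in Ring1AKO, at median depths of 4233 and 4369 UMIs against 5563 and 6535 in Treg. The thinned share of NK cells was 7.68% in WT and 13.1% in Ring1AKO (6.67 to 22.4%), and the intervals of the genotypes overlapped. In monocytes and C1q macrophages the Ctla4 level was 9.5 and 12.1 CPM in WT and 14.8 and 19.4 CPM in Ring1AKO. The cell-free RNA estimated from Igha, an antibody gene of plasma cells, would bring 9.7 and 10.7 CPM to these gates in WT and 13.6 and 19.3 CPM in Ring1AKO, so these levels are read as background.

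Icos stood at 1522 CPM (1458 to 1587) in WT Treg and 1182 CPM (1137 to 1228) in Ring1AKO Treg, which gives a log2 ratio of -0.36 (-0.45 to -0.28). It was 1470 CPM in WT Th17 cells and 1130 in Ring1AKO, for a ratio of -0.38 (-0.53 to -0.23). Other CD4 T cells held 990 and 784 CPM (-0.33), CD8 T cells 211 and 157 CPM (-0.43) and ILC2 632 and 502 CPM (-0.33), all with intervals below 0. The Icos level was thus lower in 5 of the 6 lymphoid gates, and in those 5 between 23.5% and 31.7% of all genes compared had a ratio as low or lower. In ILC2 the ratio was -0.038 without the exclusion of other lineages from the gate. The exception was the NK gate, with 216 and 233 CPM and a ratio of 0.11 (-0.23 to 0.45). Levels in Treg and Th17 could not be ordered in either genotype, since their intervals overlapped, and both lay above other CD4 T cells. The thinned share of Treg with Icos was 70.1% (63.4 to 76.2%) in WT and 63.2% (56.6 to 69.5%) in Ring1AKO. In Th17 cells it was 71.4% and 63.7%, and in other CD4 T cells 52.1% and 43.7%. The intervals of the genotypes overlapped in each of these gates. In B cells 0.371% and 0.509% of thinned cells had Icos.

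**Figure D2:**
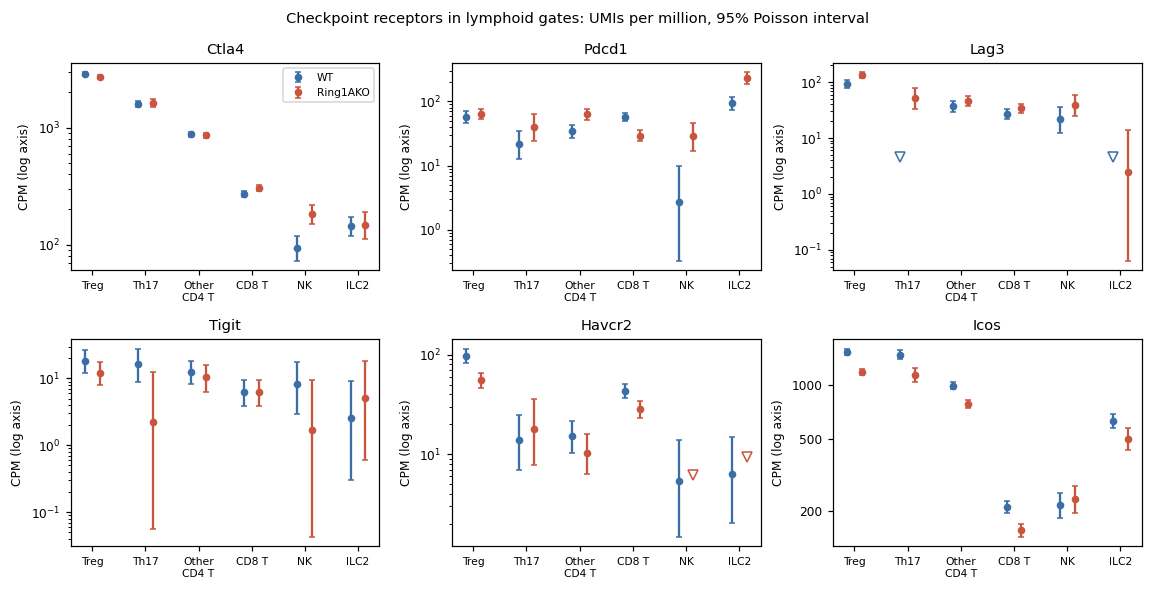
CPM (log axis) of the 6 receptors in the 6 lymphoid gates, WT in blue and Ring1AKO in red, with exact Poisson 95% intervals. An open triangle stands at the upper limit where no UMI was found. Ctla4 falls from 2874 CPM in WT Treg to 93.5 CPM in WT NK cells, and Pdcd1 is highest in Ring1AKO ILC2 at 229 CPM.

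Pdcd1 was highest in ILC2 in both genotypes, above every T cell gate. WT ILC2 held 94.6 CPM (74.4 to 119) and Ring1AKO ILC2 229 CPM (185 to 282), a log2 ratio of 1.27 (0.82 to 1.74), from 75 and 91 UMIs. Thinned ILC2 had Pdcd1 in 6.88% of 157 WT cells (3.46 to 12.0%) and in 17.5% of 80 Ring1AKO cells (9.92 to 27.6%), and these intervals overlapped. Unthinned, the shares were 19.7% and 41.2%, while 0.0912% and 0.116% of thinned B cells had the gene. CD8 T cells showed the opposite order, with 56.9 CPM in WT (49.3 to 65.4) and 29.1 CPM in Ring1AKO (23.8 to 35.3), a log2 ratio of -0.96 (-1.32 to -0.62). Other CD4 T cells had 34.0 and 62.5 CPM (0.87, 0.44 to 1.33). In Treg the level was 58.0 and 63.5 CPM, and its ratio held 0. The NK gate had 2 UMIs in WT and 17 in Ring1AKO, 12 of those 17 in 1 cell. Whether the ratios of the gates differ from each other was not tested.

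Lag3 was highest in Treg, at 93.7 CPM in WT (78.5 to 111) and 133 CPM in Ring1AKO (118 to 149), a log2 ratio of 0.50 (0.21 to 0.81). Thinned shares were 8.07% and 10.3%, with overlapping intervals. No Lag3 UMI was found in the 92 WT Th17 cells, while 23 were found in Ring1AKO Th17 cells. The Ring1AKO level was 13.7-fold above a floor of 3 counts for the WT gate, a value that leaves out the counting error of the 23 UMIs. The lower limit of the log2 ratio was 3.36. The UMIs of both libraries together are under the minimum of 30. The 23 UMIs came from 7 of 47 cells, and 7 of the 23 from 1 cell. Other CD4 T, CD8 T and NK cells had 36.9, 27.0 and 21.7 CPM in WT and 46.0, 34.5 and 38.8 CPM in Ring1AKO, and all 3 ratios held 0. Lag3 was thus nominally higher in Ring1AKO in each lymphoid gate in which it was compared. In Treg, 83.3% of all genes compared had a ratio as low as that of Lag3 or lower. Over all kept cells, gated or not, Lag3 was 9.97 CPM in WT and 17.2 CPM in Ring1AKO, with 244 and 571 UMIs in cells of no gate. This last comparison also follows the make-up of the libraries, in which the B gate held 19.6% of WT and 43.7% of Ring1AKO cells.

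Havcr2 was lower in Ring1AKO wherever its interval left out 0, and its highest level was in dendritic cells in both genotypes. Dendritic cells had 183 CPM in WT (169 to 199) and 131 CPM in Ring1AKO (118 to 145), a log2 ratio of -0.49 (-0.68 to -0.30). Monocytes had 112 and 62.3 CPM (-0.83, -1.15 to -0.55), and C1q macrophages 102 and 44.0 CPM (-1.20, -1.65 to -0.80). Among T cells, Treg held 97.1 and 55.0 CPM (-0.82, -1.18 to -0.46) and CD8 T cells 43.0 and 28.3 CPM (-0.60, -0.98 to -0.23). Thinned shares were 14.4% and 10.7% in dendritic cells, 9.81% and 5.92% in monocytes and 8.97% and 3.60% in C1q macrophages. In Treg they were 8.32% and 4.85%, and in CD8 T cells 3.63% and 2.31%. The intervals of these shares overlapped between genotypes in each gate. In the gates compared, between 2.73% and 26.9% of all genes had a ratio as low as that of Havcr2 or lower. B cells had only 5.0 and 2.3 CPM (-1.13), and 18 of the 32 WT UMIs came from 1 cell. Without the richest cell of each library the ratio was -0.30 (-1.19 to 0.77). Within the dendritic gate, cells with Xcr1 or Clec9a, markers of cross-presenting dendritic cells, held 229 and 164 CPM. Cells with Fscn1, a marker of mature dendritic cells, held 5 UMIs in WT and 1 in Ring1AKO. This division of the dendritic gate was made after the data were seen.

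Tigit was the sparsest receptor, with 164 UMIs in all WT cells and 130 in all Ring1AKO cells. Of these UMIs, 69 in WT and 55 in Ring1AKO lay in cells of no gate. Among gated cells, Tigit was found almost only in lymphoid gates, at 18.2 and 12.2 CPM in Treg. The ratio held 0 in each of the 3 gates with at least 30 UMIs. Th17 cells had 13 UMIs in WT and 1 in Ring1AKO. In monocytes, C1q macrophages, neutrophils and dendritic cells there were 0 UMIs in both genotypes.

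Cells with at least 2 receptors were common in Treg and Th17, mostly through Ctla4 and Icos, the abundant ones. Unthinned, 95.7% of WT and 93.9% of Ring1AKO Treg had at least 2 receptors, and 94.3% and 91.7% had both Ctla4 and Icos. In unthinned Th17 cells the shares were 94.6% and 93.6% for at least 2, and 93.5% and 89.4% for both. Of thinned WT Treg, 66.7% (59.8 to 73.0%) had at least 2 of the 6 receptors, and of Ring1AKO Treg 62.9% (56.3 to 69.2%). The share was 52.0% (41.3 to 62.5%) and 48.7% (33.9 to 63.7%) in Th17, whose intervals overlapped those of Treg in both genotypes, and it was 29.0% and 27.9% in other CD4 T, 8.96% and 7.40% in CD8 T, 2.98% and 5.28% in NK, and 7.43% and 10.6% in ILC2. In all 6 lymphoid gates the intervals of the genotypes overlapped.

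Among the ligands, Cd274 was lower in Ring1AKO in every gate, while Cd80 was lower in some gates and higher in others. Over the 11 gates, Pdcd1lg2 and Cd86 had intervals on both sides of 0 only through neutrophils and other CD4 T cells, respectively. Without the richest cell of each library those intervals held 0. Neutrophils held 804 CPM of Cd274 in WT (748 to 864) and 297 CPM in Ring1AKO (265 to 331), a log2 ratio of -1.44 (-1.63 to -1.25). In monocytes it was 438 CPM (422 to 454) and 201 CPM (180 to 224), a ratio of -1.12 (-1.29 to -0.96). C1q macrophages had 530 and 334 CPM, with a ratio of -0.66 (-0.82 to -0.51). Dendritic cells had 272 and 185 CPM (-0.56, -0.72 to -0.40) and B cells 190 and 121 CPM (-0.66, -0.76 to -0.55). The WT order ran from neutrophils through C1q macrophages to monocytes without overlap, whereas in Ring1AKO neutrophils and C1q macrophages overlapped. Check markers of these gates differed between the libraries too. In monocytes Plac8 stood at 6685 CPM in WT and 1850 in Ring1AKO and Chil3 at 1167 and 3505, and in C1q macrophages Apoe stood at 3889 and 9515 CPM. Their part in the ratios of these gates was not tested.

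The lymphoid gates showed the same direction. Treg had 143 CPM of Cd274 in WT and 77.9 in Ring1AKO (-0.88), Th17 102 and 56.1 (-0.82), and other CD4 T cells 102 and 62.5 (-0.71). CD8 T cells had 71.2 and 34.5 CPM (-1.04), NK cells 236 and 123 (-0.93) and ILC2 88.3 and 40.3 (-1.06). The interval of the ratio lay below 0 in 11 of 11 gates. Of the 2479 genes that could be compared in all 11 gates, 14.4% had a ratio below 0 in every one, and 2.14%, or 53 genes, had their interval below 0 in every one. Cd274 was also lower in the cells of no gate (185 and 126 CPM) and in cell-free barcodes (284 and 158 CPM). Both pools mix cell types, so these comparisons also follow the make-up of the libraries. The monocyte gate held 12.0% of WT and 2.55% of Ring1AKO cells, and the B gate 19.6% and 43.7%. Within single gates, between 4.15% and 22.7% of the genes compared had a ratio as low as that of Cd274 or lower, so it was not an extreme gene in any of them. Set against genes of like length, the ratio was -1.22 in neutrophils, -0.95 in monocytes, -0.63 in C1q macrophages, -0.45 in B cells and -0.36 in dendritic cells.

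**Figure D3:**
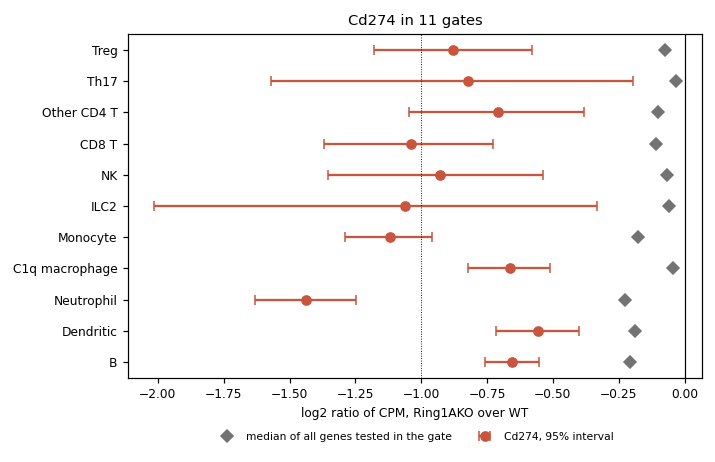
Log2 ratio of Cd274 CPM (x axis, Ring1AKO over WT) in each of the 11 gates, with the 95% interval, and the median ratio of all genes compared in that gate (grey diamonds). The dotted line marks a 2-fold difference. Every Cd274 interval lies left of 0, from -0.56 in dendritic cells to -1.44 in neutrophils, while the grey medians lie between -0.03 and -0.23.

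Thinned to 1000 UMIs, 43.3% of WT neutrophils (36.3 to 50.5%) and 24.7% of Ring1AKO neutrophils (19.1 to 30.9%) had Cd274. Monocytes had 31.1% (27.7 to 34.6%) and 18.4% (13.3 to 24.4%), against unthinned shares of 77.3% and 61.9%. In B cells too the intervals did not overlap, WT lying at 16.5% (14.4 to 18.7%) and the Ring1AKO interval ending at 12.1%. How many of all genes had thinned shares apart in these gates was not computed. C1q macrophages had 35.0% (29.4 to 40.9%) and 24.0% (18.2 to 30.5%), and dendritic cells 23.8% and 16.8%, and these intervals overlapped. NK cells, the gate set as a reference for the ligands, are no background for this gene, since 19.5% of WT and 14.3% of Ring1AKO cells had it. Epithelial markers (4 genes, summed) stood at 459 CPM in the WT neutrophil gate and 13.8 CPM in Ring1AKO, in both cases with all 4 detected. Without barcodes with at least 5 such UMIs the neutrophil ratio was -1.50.

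Of all gated Cd274 UMIs, monocytes contributed 36.3% in WT and 7.84% in Ring1AKO, and B cells 14.8% and 50.2%. These shares follow the number of cells in each gate (722 and 202 monocytes) as well as the level per cell. Within dendritic cells, Cd274 was lower in each of the 3 divisions. Fscn1 cells held most, 721 CPM in WT and 510 in Ring1AKO from 19 and 27 cells, cells with Xcr1 or Clec9a held 116 and 85.5 CPM, and the remainder 358 and 219 CPM.

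Irf1, the interferon regulatory factor named above, was looked at after its values were known. It was lower in Ring1AKO in 10 gates with an interval below 0, at 417 and 99.7 CPM in monocytes (log2 ratio -2.06). In ILC2 its interval held 0. The part of Irf1 in the Cd274 result was not tested.

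Pdcd1lg2 was most abundant in the NK gate, at 108 CPM in WT (86.0 to 135) and 84.3 CPM in Ring1AKO (62.6 to 111), with a ratio whose interval held 0. Treg had 53.8 and 37.4 CPM (-0.53, -0.99 to -0.06), and B cells 39.5 and 33.0 CPM (-0.26, -0.47 to -0.04). In B cells the median ratio of all genes compared was -0.21, and 44.7% of them had a ratio as low as that of Pdcd1lg2 or lower. Dendritic cells had 22.4 and 22.9 CPM, a ratio of 0.04 (-0.47 to 0.54), but the divisions of this gate did not go one way. Cells with Xcr1 or Clec9a had 3 UMIs in WT and 19 in Ring1AKO (2.50, 1.08 to 5.24). Together these are under the minimum of 30 UMIs, and the 19 UMIs came from 6 of 61 cells. The check marker Ccr7 stood in this division at 39.1 CPM in WT and 215 in Ring1AKO, and its part was not tested. Fscn1 cells had 30 and 11 UMIs of Pdcd1lg2 (-1.50, -2.73 to -0.54). Neutrophils went the other way from Treg, with 11 UMIs in WT and 27 in Ring1AKO (1.01, 0.02 to 2.24). Without the richest cell of each library the neutrophil interval held 0 (-0.02 to 2.45). Monocytes and C1q macrophages held 6.0 to 9.0 CPM, against at most 1.4 CPM from the estimated cell-free RNA.

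Cd80 and Cd86, which both CD28 and CTLA-4 bind, did not move together. Cd80 was highest in neutrophils, at 199 CPM in WT (171 to 230) and 116 CPM in Ring1AKO (96.7 to 138), a log2 ratio of -0.77 (-1.12 to -0.44). B cells had 14.4 CPM (11.6 to 17.6) and 4.8 CPM (3.8 to 5.9), a ratio of -1.59 (-2.03 to -1.15), of which the estimated cell-free RNA would account for 1.3 and 1.0 CPM. The Cd80 UMIs of B cells came from 54 of 1174 WT cells and 65 of 3464 Ring1AKO cells. In the 3 other antigen-presenting gates Cd80 was higher in Ring1AKO. Monocytes had 53.9 and 77.1 CPM (0.52, 0.22 to 0.81), C1q macrophages 48.2 and 79.8 CPM (0.73, 0.34 to 1.11), and dendritic cells 61.3 and 77.9 CPM (0.35, 0.06 to 0.63). Within each division of the dendritic gate, however, the interval of the Cd80 ratio held 0. Fscn1 cells held most Cd80, 154 and 199 CPM, and made up 19 of 178 WT and 27 of 163 Ring1AKO dendritic cells. The part of this make-up in the dendritic ratio was not tested. The thinned share of C1q macrophages with Cd80 was 4.33% (2.26 to 7.43%) and 6.65% (3.60 to 11.1%), that of monocytes 5.45% and 7.18%, and that of neutrophils 16.8% and 12.0%, with overlapping intervals in each. Of thinned NK cells 0.0993% and 0.183% had Cd80, at median depths of 5426 and 5364 UMIs, and of thinned B cells 0.864% and 0.306%.

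Cd86 was similar in C1q macrophages, at 235 CPM in WT (217 to 254) and 234 CPM in Ring1AKO (209 to 262), with a log2 ratio of 0.00 (-0.20 to 0.19). In dendritic cells it was 214 CPM (199 to 231) and 278 CPM (259 to 298), a ratio of 0.38 (0.23 to 0.53). B cells had 137 and 152 CPM (0.15, 0.04 to 0.27), and monocytes 194 and 171 CPM (-0.18, -0.37 to 0.00). Cd86 was thus higher in Ring1AKO in the dendritic gate in which Cd274 and Havcr2 were lower. Thinned dendritic cells had Cd86 in 19.9% (14.3 to 26.6%) and 24.2% (17.8 to 31.5%) of cells, and NK cells in 0.243% and 0.479%. Other CD4 T cells had 29 and 12 UMIs of Cd86 (-1.12), at 14.1 and 6.2 CPM, of which the estimated cell-free RNA would account for 2.4 and 3.3 CPM. Without the richest cell of each library this ratio was -0.98 and its interval held 0.

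**Figure D4:**
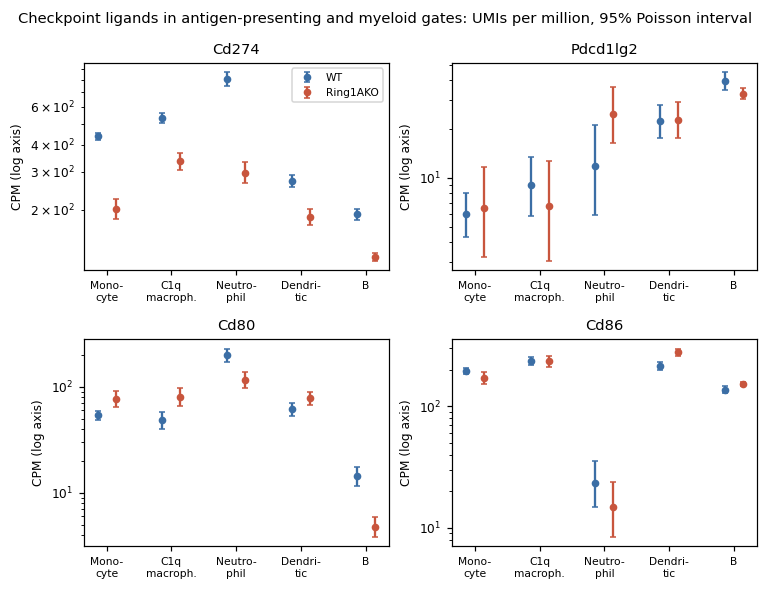
CPM (log axis) of the 4 ligands in the monocyte, C1q macrophage, neutrophil, dendritic and B gates, WT in blue and Ring1AKO in red, with exact Poisson 95% intervals. Cd274 is lower in Ring1AKO in all 5, from 804 to 297 CPM in neutrophils, whereas Cd80 is lower in neutrophils and B cells and higher in the other 3.

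Antigen-presenting cells with at least 2 of the 4 ligands were few at 1000 UMIs. They made up 10.4% of WT neutrophils (6.47 to 15.5%) and 4.40% of Ring1AKO neutrophils (2.10 to 8.03%). In dendritic cells the share was 9.65% and 9.90%, in monocytes 7.79% and 4.94%, in C1q macrophages 9.32% and 7.45%, and in B cells 3.28% and 2.27%. The intervals of the genotypes overlapped in all 5 gates.

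Differences of at least 2-fold were read against all genes of the same gate that reached 30 UMIs in both libraries together. In Treg 0 of 10 members passed, against 9.84% of genes, and in Th17 0 of 4, against 10.1%. In other CD4 T cells it was 1 of 9 (Cd86, lower) against 4.83%, and in CD8 T cells 1 of 9 (Cd274, lower) against 5.40%. NK cells had 0 of 5 against 9.84%, and ILC2 had 2 of 5, Pdcd1 higher and Cd274 lower, against 8.86%. Monocytes had 1 of 6 (Cd274) against 10.6%, C1q macrophages 1 of 7 (Havcr2, lower) against 7.55%, and neutrophils 2 of 5, Cd274 lower and Pdcd1lg2 higher, against 15.4%. Dendritic cells had 0 of 7 against 8.58%, and B cells 2 of 8, Havcr2 and Cd80, both lower, against 8.00%. In all, 10 of 75 values passed, against 8.52% of the values of all genes in the 11 gates. Without the richest cell of each library, Havcr2 in B cells (-0.30) and Cd86 in other CD4 T cells (-0.98) were under 2-fold. Centred on the median of all genes, Cd274 in monocytes and CD8 T cells and Havcr2 in B cells no longer passed, while Ctla4 in NK cells did. The median ratio of the members in CD8 T cells was -0.43, against -0.11 for all genes of that gate. It was also lower in Treg (-0.28 against -0.07), Th17 (-0.18 against -0.03), other CD4 T cells (-0.33 against -0.10) and neutrophils (-0.65 against -0.23). It was higher in monocytes (0.02 against -0.17), NK cells (0.11 against -0.07) and ILC2 (0.02 against -0.06). The same held for C1q macrophages (-0.0009 against -0.04), dendritic cells (0.04 against -0.19) and B cells (-0.13 against -0.21).

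**Figure D5:**
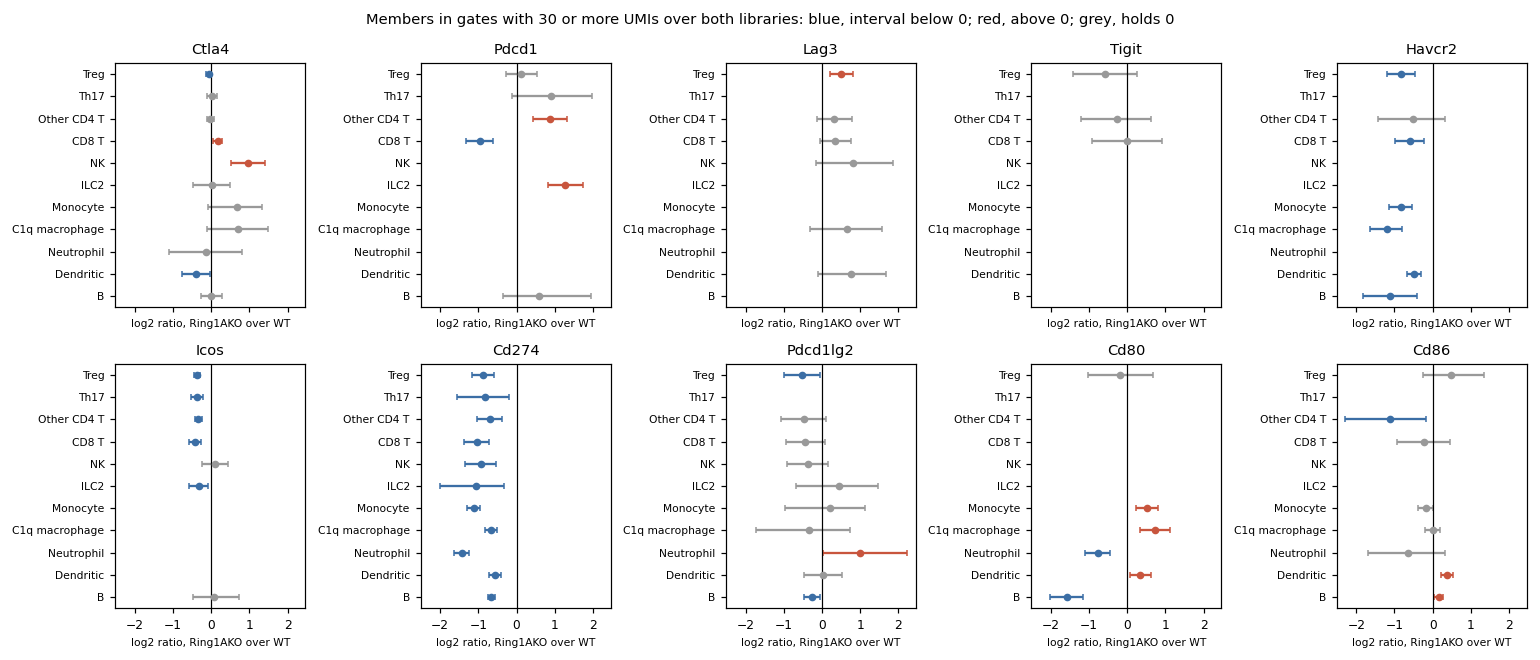
Log2 ratio (x axis, Ring1AKO over WT) of each of the 10 genes in each gate (y axis) in which it reached 30 UMIs, with 95% intervals. Blue points have an interval below 0, red points above 0 and grey points hold 0. Cd274 is blue in all 11 gates, Havcr2 is blue or grey throughout, and Pdcd1 and Cd80 have both colours.

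A list of 24 other checkpoint genes was read in the same way, and 18 of 145 values passed 2-fold, against the same 8.52% of all values (4.83% to 15.4% in single gates). The genes that passed are given with their values, and nothing particular to the list is read from their number. Cd40lg, the ligand by which helper T cells activate B cells and dendritic cells, was lower in Ring1AKO in Treg (27 and 11 UMIs, -1.86), Th17 (213 and 89.8 CPM, -1.22) and other CD4 T cells (174 and 83.2 CPM, -1.06). In ILC2, Tnfrsf9 (4-1BB) had 82.0 CPM in WT and 275 in Ring1AKO (1.74) and Tnfrsf18 (GITR) 134 and 343 CPM (1.36), in the same gate in which Pdcd1 was higher. Tnfrsf4 (OX40) was 352 and 847 CPM in Th17 (1.26), where 90 of the 377 Ring1AKO UMIs came from 1 cell, and had 36 and 84 UMIs in dendritic cells (1.44). Tnfrsf9 was higher in C1q macrophages (12 and 20 UMIs, 1.68), and Tnfrsf18 in monocytes (24 and 14 UMIs in 722 and 202 cells, 1.29).

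The other genes of the list past 2-fold were mostly lower. Lgals9, whose product galectin-9 is a ligand of TIM-3, had 107 and 49.8 CPM in monocytes (-1.09), where Havcr2 was also lower. Cd226, the activating counterpart of Tigit, had 38.4 and 17.1 CPM in Treg (-1.16) and 9.7 and 3.9 CPM in dendritic cells (-1.22), and Cd96, which like them binds the poliovirus receptor, had 80.5 and 31.4 CPM in Th17 (-1.28). Nt5e, the ectonucleotidase that makes adenosine, was 33.0 and 10.3 CPM in B cells (-1.68), Sirpa 8.5 and 3.7 CPM in B cells (-1.22), and Entpd1 17.9 and 8.8 CPM in CD8 T cells (-1.01). Ceacam1 had 1 UMI in the WT NK gate and 63 in the Ring1AKO NK gate, all 63 in 1 cell, and the summed epithelial markers there stood at 24.4 and 1172 CPM. In neutrophils Ceacam1 had 60 and 22 UMIs (-1.62), with 43 of the 60 in 1 cell and the epithelial markers at 459 and 13.8 CPM as above. The part of epithelial transcripts in both was not tested.

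Across the 22 values that each gene has (11 gates in 2 libraries), the genes with the most similar pattern of log2(CPM + 1) to Icos were Cd28 (Pearson r = 0.98), Camk4 (0.98) and Bcl11b (0.97). Ctla4 was closest to Spock2, Lat and Chst2 (0.94 each), Pdcd1 to Klk8 (0.94), Ldlrad4 (0.92) and Tox (0.92), and Cd274 to Spag9 (0.92), Oasl2 (0.92) and Gsap (0.91). Cd80 was closest to Slc6a6 (0.94), Csf2rb (0.93) and Alox5ap (0.93), and Cd86 to Gm6377 (0.96), Pld4 (0.95) and Fgd2 (0.94). The closest genes were Camk4 (0.95), Dnajb13 (0.95) and Galnt6 (0.94) for Tigit, Mmd (0.82), Rgs16 (0.81) and Ccs (0.81) for Lag3, Twf2 (0.84), Rap2b (0.83) and Bnip2 (0.82) for Havcr2, and Acap1 (0.80), Rabgap1l (0.79) and Dnaja1 (0.79) for Pdcd1lg2. The points share libraries, depth and gates, so these are descriptions only.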

How the data were processed

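The authors deposited, per library, an unfiltered matrix of UMI counts per gene and barcode from 10x Genomics 3′ v3 chemistry, with no normalization. The submitters' processing notes name Cell Ranger 6.0.2, Seurat and mm39, the file headers name Cell Ranger 4, and the methods of the study name other versions, so build and version are uncertain. No doublet caller was run; gates excluded barcodes with transcripts of other lineages, and barcodes that met several gates (5 and 6) were left out. Barcodes with at least 1000 UMIs, at least 500 genes and under 5% mitochondrial UMIs were kept, from libraries of 74414511 and 81862096 UMIs. Counts were summed per gate and library and divided by the total of the gate (CPM), with exact Poisson intervals. Ratios had 1 UMI added to each sum and exact conditional intervals, and shares of cells with a UMI were the mean over all draws of 1000 UMIs per cell, with Clopper-Pearson intervals. With 1 library per group no p-value was computed. Barcodes under 100 UMIs gave the cell-free profile, and its share of a gate was estimated as the CPM of Igha in the gate over that in the profile, an upper estimate where cells of the gate express Igha. Lengths are of the longest GENCODE vM21 transcript, matched for 99.9% of 13029 genes. The members, gates and lists were chosen with earlier results of these data known. Named were all members, list genes past 2-fold with at least 30 UMIs, and the 3 genes most like each member. Intervals treat cells of a gate as 1 sum and cover neither mice nor libraries. Calculations used Python 3.11.15, numpy 2.4.6, scipy 1.17.1 and pandas 2.3.3.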

Additional observations from a re-analysis of the deposited data

Results flagged for a closer look

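For 5 of the genes, among gates with at least 30 UMIs of the gene, the interval of the log2 ratio (Ring1AKO over WT) lay below 0 in 1 or more gates and above 0 in others. Since each gate has 1 library per genotype, the difference between gates was not tested in any of them. The share of all genes that meet the same rule was not computed, so nothing particular to the members is read from this count. Pdcd1 was at -0.96 in CD8 T cells and 1.27 in ILC2. Cd80 was at -1.59 in B cells and 0.73 in C1q macrophages. Cd86 was at -1.12 in other CD4 T cells and 0.38 in dendritic cells. Without the richest cell of each library, the Cd86 interval in other CD4 T cells held 0 (-2.23 to 0.03). Ctla4 was at -0.39 in dendritic cells, from 49.9 and 37.9 CPM, where 59 of the 165 WT UMIs came from 1 cell, and 0.95 in NK cells. Pdcd1lg2 was at -0.53 in Treg and 1.01 in neutrophils, where the interval held 0 without the richest cell of each library (-0.02 to 2.45). The rule that compares a sample with the others of its group could not be applied to groups of 1 library.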

How the results depend on the processing

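No paired analysis was possible because either genotype gave 1 library only. Ratios followed through the alternatives were those of the receptors in the lymphoid gates and of the ligands in the antigen-presenting gates, with at least 30 UMIs. Cd274 in the lymphoid gates and Havcr2 in monocytes, C1q macrophages and dendritic cells were followed too. Other member values, such as Ctla4 in dendritic cells and Pdcd1lg2 in Treg, were not. Of the 56 ratios followed, 37 had an interval that left out 0. Of these 37, 36 kept their sign in each of the alternatives that could be computed for them. The exception was Ctla4 in Treg (0.058 without lineage exclusions and 0.0035 centred on all genes). The share of all genes whose interval left out 0 was not computed, so the count of 37 is no result about the members. Cd274 was below 0 in 176 of 176 values. The alternatives reuse largely the same UMIs, so kept signs are no independent support. Cells of at most 20000 UMIs gave -0.0043 for Ctla4 and -0.17 for Icos in Treg. The share of monocytes with Cd274 differed by -12.7 percentage points thinned and -15.4 points without thinning. Icos in Treg was -0.22 without lineage exclusions and -0.25 both as a mean over cells and after thinning, which gave -0.96 for Cd274 in monocytes. Centring on all genes gave -0.94, -1.21 and -0.45 for Cd274 in monocytes, neutrophils and B cells, and centring on genes of like length, an alternative added after the data were seen, gave -0.95, -1.22 and -0.45, and -0.20 for Ctla4 in Treg. With a minimum of 10 UMIs, 19 of 89 member values and 37 of 197 list values passed 2-fold, against 13.2% of all values. Centred on all genes, 8 of 75 and 16 of 145 passed, against 7.64%. Cd274 in CD8 T cells (-0.93) and Havcr2 in B cells (-0.92) were then under 2-fold beside Cd274 in monocytes, while Ctla4 in NK cells passed. The cause of these changes was not tested. The alternatives without shared barcodes, without barcodes of epithelial transcripts and without the richest cell of each gate were also added later. Counts limit the Th17, NK and ILC2 gates most, each having under 100 cells in Ring1AKO.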
